A study of Mus musculus with 30 samples.

Results

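The Notch pathway genes described here are *Dll1*, *Dll3*, *Jag1*, *Notch1*, *Notch3*, *Mfng*, *Hes1*, *Hes5*, *Hes6* and *Hey1*, 10 genes chosen by symbol from the 25400 genes of the count table and followed through neural progenitor cells (NPCs) of 8 mouse lines. The choice was made with earlier results of these data known. All 10 passed the filter on low counts, as did 16582 genes in all. The NPCs were differentiated in vitro from mouse embryonic stem cells (ESCs, line HA36CB1 of mixed 129×C57BL/6 background), and poly(A) RNA was sequenced in 3 libraries per line. The lines were wild type (WT), *Mbd3* KO, and *Mbd3* KO carrying a construct for MBD3a, MBD3ΔMBD (no methyl-CpG-binding domain), MBD2a, MBD2aΔGR (no glycine-arginine stretch), MBD2a(R181C) (a point mutant of the same binding domain, named as in the sample titles) or MBD2t (a truncated isoform). All constructs were biotin-tagged, stood behind the CAG promoter at a single exchange site in BirA-positive ESCs, and shared the *Mbd3* KO background with an intact endogenous *Mbd2*. Libraries of a line came from separately derived clones, except that the 3 MBD2t libraries repeat a single clone, so that their spread leaves out differences between clones.

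Notch signalling passes between touching cells. Ligands of the Delta and Jagged families on a cell bind Notch receptors on its neighbour, the receptor is cut by ADAM proteases and γ-secretase, and the freed intracellular domain joins RBPJ and Mastermind proteins on DNA to switch on genes of the Hes and Hey families. These repressors hold back proneural genes, so that cells with strong Notch activity stay progenitors while their Delta-rich neighbours become neurons, a process known as lateral inhibition. MBD2 and MBD3 are alternative subunits of the NuRD chromatin remodelling complex, and the lines ask which of their isoforms and domains can stand in for MBD3 during neural commitment.

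Library totals lay between 27993858 and 49392806 reads, where 3 reads correspond to 0.0607 to 0.115 CPM (the usual depth-scaled count unit, here with library sizes scaled by the TMM method), and the lowest count of any of the 10 genes in any library was 26 reads, for *Hes5*. Replicates were no copies of each other, with a chi-square per gene of 3.32 or more for every pair. The third WT library (chi-square of 178 and 153 against the others), the first *Mbd3* KO library (67.5 and 75.7) and the third MBD2aΔGR library (288 and 198) stood apart within their lines. For the 10 genes, each was left out in turn in every comparison that uses it, and what changed is given beside the result. Libraries of a line are listed in the order of the table's columns. *Mbd3*, the targeted gene, had 149 to 157 CPM in WT and 34.2 to 73.8 CPM in *Mbd3* KO, a log2 fold change of -1.38 (standard error, SE, 0.274 and adjusted p = 0.000283 by edgeR's quasi-likelihood F test, as for all adjusted p-values below unless DESeq2 is named). Without the first KO library it was -1.11 (adjusted p = 0.00185). Reads were counted over the whole gene, so those from outside the edited part are in these values. *Mbd2* had 40.8 to 50.4 CPM in WT, 64.2 to 70.9 in *Mbd3* KO and 67.0 to 87.2 with MBD2a, but 253 to 325 with MBD2a(R181C), 280 to 700 with MBD2aΔGR and 335 to 356 with MBD2t.

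In WT NPCs every layer of the pathway was expressed. Per kilobase of annotated exon, the Hes family genes *Hes6* (81.6 CPM per kilobase) and *Hes5* (78.9) had the highest mean levels. They were followed by *Hes1* (32.3), *Notch3* (28.7), *Dll1* (28.2), *Dll3* (20.02), *Hey1* (15.7), *Notch1* (15.3), *Mfng* (7.02) and *Jag1* (4.05). In *Mbd3* KO NPCs *Hes1* came first on the same scale (20.8 CPM per kilobase), ahead of *Hes6* (12.4) and *Notch3* (11.9), while *Hes5* (0.642) and *Dll1* (0.626) came last.

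**Figure D1:**
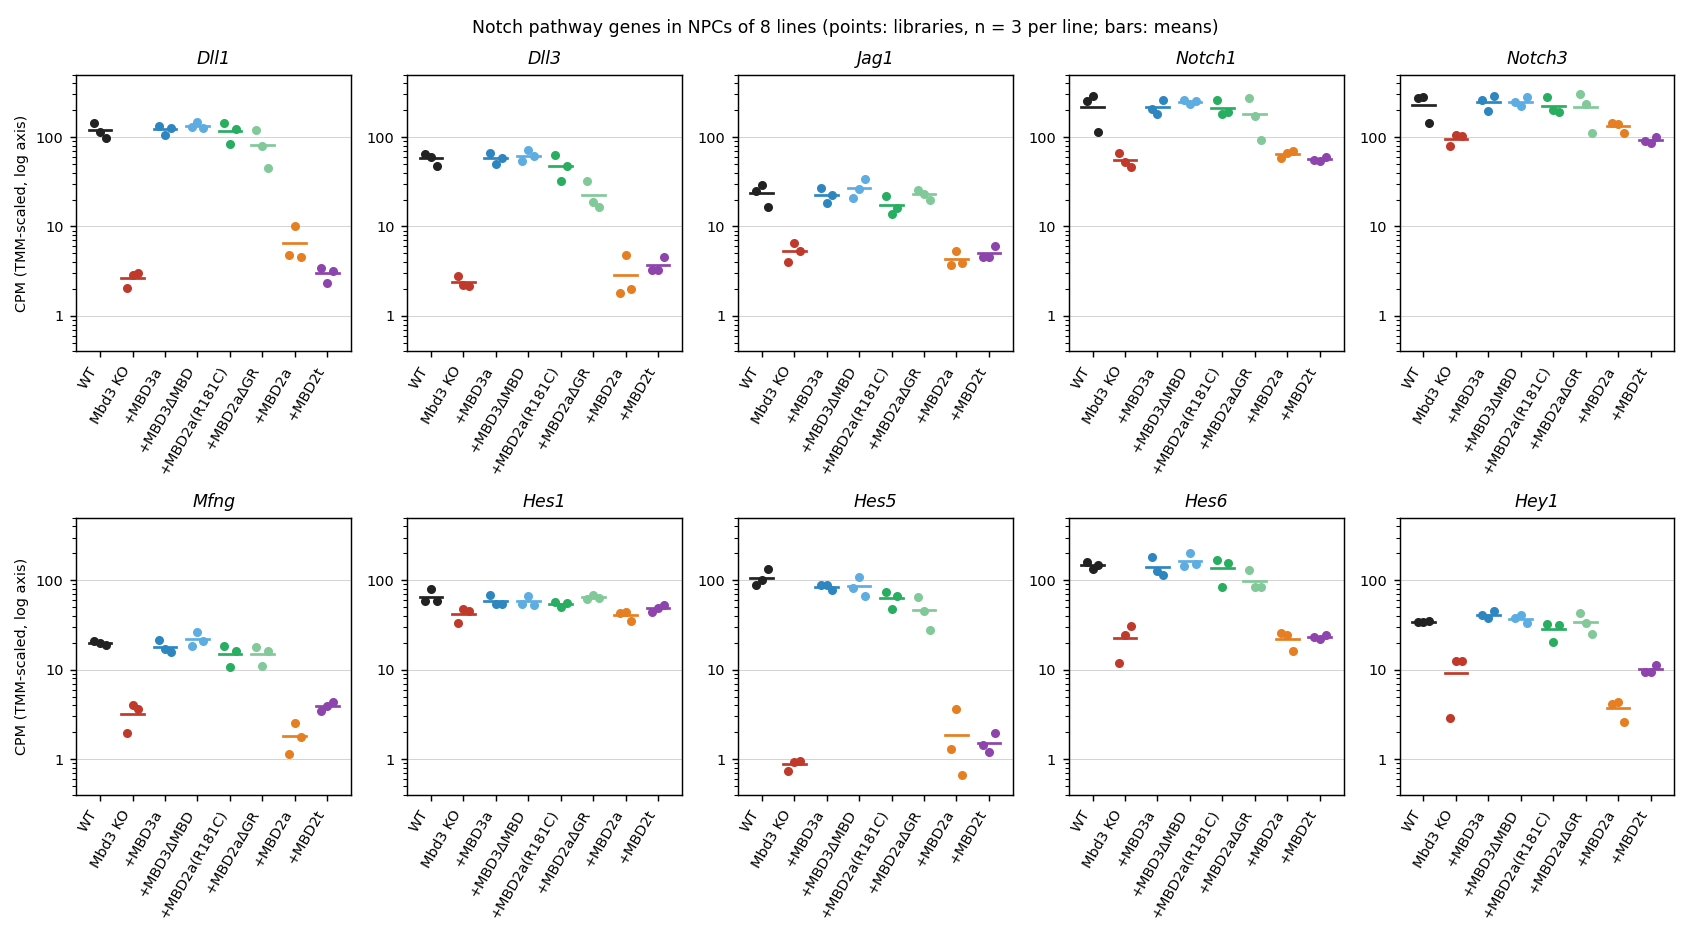
Level of each of the 10 Notch pathway genes in every library, in TMM-scaled CPM on a log axis, for the 8 lines (points are libraries, n = 3 per line, and bars are means). For *Dll1*, *Dll3* and *Hes5* the *Mbd3* KO, MBD2a and MBD2t libraries lie at 10.0 CPM or below, and all others at 16.4 CPM or above.

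The first comparison asks how the pathway differs between *Mbd3* KO and WT NPCs. Of the 10 genes, 9 were lower in the KO and none was higher, where a gene was called at a Benjamini-Hochberg adjusted p under 0.05 and a log2 fold change beyond 1 in either direction. Over all 16582 genes, 33.8% were called in either direction, 14.2% lower and 19.6% higher. The libraries of the lines did not overlap for any of the 10 genes, against 62.2% of all genes. The median log2 fold change of the 10 genes was -2.38, and that of all tested genes -0.03. Without the third WT library, and without the first *Mbd3* KO library, 9 were called again, and no log2 fold change of the 10 moved by more than 0.31 (*Notch1*) and 0.42 (*Hey1*). In bulk samples, fewer cells of a type and less RNA per cell cannot be told apart.

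After *Hes5*, the Delta ligands had the largest decreases. *Dll1*, the main activating Delta ligand of neural progenitors (chromosome 17, 15504318 to 15513836, minus strand, mm9), was at 144, 115 and 97.9 CPM in WT and at 2.03, 2.85 and 3.04 CPM in *Mbd3* KO. The lowest WT library lay far above the highest KO library, and the mean of the KO was 2.22% of the WT mean. The log2 fold change was -5.48 (SE 0.375, adjusted p = 6.19e-09), a 44.8-fold lower level. *Dll3*, a divergent Delta protein that acts within the cell and does not activate Notch on neighbours (chromosome 7, 29076673 to 29087257, minus strand, mm9), had 64.4, 60.5 and 47.9 CPM in WT and 2.80, 2.21 and 2.14 CPM in *Mbd3* KO. It fell by 4.60 on the log2 scale (SE 0.349, adjusted p = 1.92e-08). *Jag1*, a ligand of the Jagged family, had 24.9, 29.4 and 16.5 CPM in WT and 4.00, 6.53 and 5.37 CPM in *Mbd3* KO. Its decrease was smaller, with a log2 fold change of -2.15 (SE 0.256, adjusted p = 1.78e-06), and about 22.4% of its WT mean was left.

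The receptors kept more of their RNA than the Delta ligands, with 25.4% of the WT mean for *Notch1* and 41.4% for *Notch3*. The share of *Notch1* was close to that of *Jag1* (22.4%). *Notch1* had 252, 287 and 113 CPM in WT and 66.4, 52.8 and 46.5 CPM in *Mbd3* KO, with a log2 fold change of -1.98 (SE 0.316, adjusted p = 3.46e-05). *Notch3* had 272, 278 and 142 CPM in WT and 78.5, 105 and 103 CPM in *Mbd3* KO, with a log2 fold change of -1.27 (SE 0.285, adjusted p = 0.000849). For both receptors the third WT library was the lowest of its line by far, and without it the log2 fold changes were -2.29 for *Notch1* (adjusted p = 4.46e-06) and -1.53 for *Notch3* (adjusted p = 0.000150). *Mfng*, manic fringe, a glycosyltransferase that adds sugars to the Notch extracellular domain and shifts its preference among ligands, had 20.7, 20.1 and 18.9 CPM in WT and 1.97, 4.07 and 3.62 CPM in *Mbd3* KO. It fell by 2.61 on the log2 scale (SE 0.273, adjusted p = 4.64e-07).

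The repressors downstream of the receptor diverged most from each other. *Hes5*, a direct target of Notch that marks neural progenitors (chromosome 4, 154335032 to 154336480, plus strand, mm9), had 87.8, 99.6 and 135 CPM in WT and 0.743, 0.930 and 0.952 CPM in *Mbd3* KO. Its KO mean was 0.814% of WT, the lowest share among the 10 genes, with a log2 fold change of -6.93 (SE 0.469, adjusted p = 5.69e-09). *Hes1*, the Hes family repressor that is also expressed in ESCs and many other cells, had 58.8, 79.2 and 59.5 CPM in WT and 33.4, 48.3 and 45.4 CPM in *Mbd3* KO. Its libraries did not overlap either, yet the KO kept 64.4% of the WT mean and the log2 fold change of -0.63 (SE 0.150, 95% interval -0.95 to -0.32, adjusted p = 0.00129) stayed within the threshold on size, so it was not called. *Hey1*, a Hes-related Notch target, had 33.9, 34.6 and 35.2 CPM in WT and 2.89, 12.5 and 12.4 CPM in *Mbd3* KO. Its log2 fold change of -1.89 (SE 0.335, adjusted p = 9.43e-05) became -1.48 (adjusted p = 4.30e-05) without the first KO library, which was the lowest by a wide margin.

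*Hes6*, which opposes Hes1 and accompanies neuronal commitment, had 161, 132 and 149 CPM in WT and 11.9, 24.3 and 31.2 CPM in *Mbd3* KO, a log2 fold change of -2.71 (SE 0.315, adjusted p = 1.38e-06). The gene lies on chromosome 1, whose 728 expressed genes were also shifted as a block in some libraries. Their median deviation from the other libraries of the line was -0.38 on the log2 scale in the first KO library and 0.29 in the third, the lowest and the highest KO library for *Hes6*. Without the first KO library the log2 fold change of *Hes6* was -2.41 (adjusted p = 7.89e-06). The part of the remaining shift in the result was not tested.

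The transcripts of *Dll1*, *Hes5*, *Notch1* and *Notch3* overlap exons of non-coding genes on the opposite strand. The library kit keeps strand, but the strand setting of the counting was not given in the sources used here, so the values of these 4 genes may include reads of their partners.

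In *Mbd3* KO, neural progenitor and neuron markers were lower, like the Notch genes, whereas pluripotent cell and trophoblast markers were higher. The summed level of 6 neural progenitor markers (*Sox2*, *Pax6*, *Nes*, *Fabp7*, *Vim* and *Slc1a3*) was 1773 to 2051 CPM in WT and 273 to 335 CPM in *Mbd3* KO, and all 6 were called lower. The sum of 6 neuron markers was 1174 to 2910 CPM in WT and 109 to 224 CPM in *Mbd3* KO, again with all 6 called lower. The sum of 6 pluripotent cell markers was 21.1 to 110 CPM in WT and 244 to 730 CPM in the KO, and that of 6 trophoblast markers 14.6 to 35.04 CPM in WT and 470 to 629 CPM in the KO, with all 12 called higher. No marker of these lists was at 0 in any library. The part of cell type composition in the levels of the Notch genes was not tested.

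The windows before the start sites of *Hes5*, *Dll1* and *Dll3*, the members with the largest decreases, are shown because Notch acts on its targets through RBPJ at DNA. The sequences are the 250 bases upstream of the gene start in the RefSeq table for GRCm38.p6, a later build than that of the counts, written 5′ to 3′ on the gene's strand, and capitals mark matches to GTGGGAA or its reverse complement TTCCCAC, a core sequence bound by RBPJ. For *Dll1*, which has a pair of listed starts, the window is given whose following bases were found in the annotated transcript.
*Hes5* (chr4:154960673-154960922, plus strand): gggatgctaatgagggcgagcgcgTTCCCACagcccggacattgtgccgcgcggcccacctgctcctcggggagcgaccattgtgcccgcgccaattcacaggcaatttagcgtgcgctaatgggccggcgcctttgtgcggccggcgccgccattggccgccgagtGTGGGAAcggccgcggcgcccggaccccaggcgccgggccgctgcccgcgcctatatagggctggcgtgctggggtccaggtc
*Dll1* (chr17:15375824-15376073, minus strand): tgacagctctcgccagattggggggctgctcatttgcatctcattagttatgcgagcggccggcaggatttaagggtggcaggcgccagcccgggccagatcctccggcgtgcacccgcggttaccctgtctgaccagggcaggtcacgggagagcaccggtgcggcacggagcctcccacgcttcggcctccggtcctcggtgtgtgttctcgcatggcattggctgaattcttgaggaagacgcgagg
*Dll3* (chr7:28301786-28302035, minus strand): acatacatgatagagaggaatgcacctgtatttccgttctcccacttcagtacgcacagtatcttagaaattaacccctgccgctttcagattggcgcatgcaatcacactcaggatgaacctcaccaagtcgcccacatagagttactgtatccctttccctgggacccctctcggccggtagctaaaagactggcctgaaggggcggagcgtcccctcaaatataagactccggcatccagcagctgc
The *Hes5* window held 2 matches, whose positions lie 226 and 83 bases before the gene start, on opposite strands. A match was present in 5.42% of the 32851 windows of this length in the table. The windows of *Dll1* and *Dll3* held none, nor any match to the E-box CAGATG (either strand, 14.4% of all windows) or to the N-box CACNAG (either strand, 36.7%), a sequence that Hes repressors bind. The table matched 7 of the 10 genes, and *Mfng*, *Hes1* and *Hey1* had no entry. Of the other members, *Jag1* held none of these motifs, *Notch1*, *Notch3* and *Hes6* held at least 1 N-box match, and none but *Hes5* held GTGGGAA. A match is a description of letters and not of binding.

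The rest of the pathway did not fall as a whole. Members and other lists were chosen with earlier results known, so the contrast between them cannot be told apart from that choice. Of 45 further pathway genes, all of which were tested, 10 were lower and 7 higher in *Mbd3* KO than in WT (14.2% and 19.6% of all genes), with a median log2 fold change of -0.17. The 4 other glycosyltransferases, the receptors *Notch2* and *Notch4*, and *Rbpj* (213, 223 and 163 CPM in WT, 240, 155 and 139 CPM in *Mbd3* KO), the DNA-binding partner of the Notch intracellular domain, were not called. Of 8 subunits of the receptor-cleaving proteases, *Aph1b* fell by 1.13 on the log2 scale and *Psen2* rose by 1.14. Of 8 nuclear cofactors, the coactivators *Maml2* (log2 fold change -1.49) and *Maml3* (-1.15) were lower.

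The 3 largest decreases were in *Hes3*, *Dner* and *Dtx4*. *Hes3*, another progenitor repressor of the Hes family, had 4.99, 6.19 and 7.55 CPM in WT and 0.143, 0.0885 and 0.132 CPM in *Mbd3* KO, values that rest on 4 or 5 reads in each KO library. Its log2 fold change was -5.68 (SE 0.589, adjusted p = 3.04e-07). *Dner*, a neuronal transmembrane protein related to Delta, had 218, 162 and 65.0 CPM in WT and 1.52, 4.32 and 5.50 CPM in *Mbd3* KO, with a log2 fold change of -5.29 (SE 0.734, adjusted p = 8.42e-06). Like *Hes6*, both *Dner* and *Psen2* lie on chromosome 1, whose genes deviated by -0.38 in the first KO library and by 0.29 in the third. The part of this shift in their values was not tested. *Dtx4*, a ubiquitin ligase of the Deltex family, had 597, 487 and 478 CPM in WT and 18.6, 23.4 and 24.9 CPM in *Mbd3* KO, with a log2 fold change of -4.54 (SE 0.391, adjusted p = 6.46e-08).

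The 3 largest increases were in *Neurl1b*, *Dlk2* and *Hes7*. *Neurl1b*, a Neuralized-type ligase that promotes ligand endocytosis, had 3.49, 4.35 and 2.99 CPM in WT and 63.8, 29.5 and 35.3 CPM in *Mbd3* KO (log2 fold change 3.57, SE 0.381, adjusted p = 5.91e-07). *Dlk2*, a non-canonical Delta-like protein, had 0.698, 0.523 and 0.584 CPM in WT and 7.26, 3.67 and 3.15 CPM in *Mbd3* KO (log2 fold change 2.95, SE 0.555, adjusted p = 0.000174), and its exons overlap those of *Abcc10* on the opposite strand. *Hes7*, known for its oscillation during somite formation, had 0.456, 0.688 and 0.682 CPM in WT and 3.89, 3.63 and 3.60 CPM in *Mbd3* KO (log2 fold change 2.60, SE 0.270, adjusted p = 4.67e-07). The exons of *Hes7*, and those of *Dll4* named below, overlap a non-coding gene on the opposite strand, so their values may include its reads. Without the first KO library the log2 fold changes of *Neurl1b* and *Dlk2* were 3.17 and 2.50, and that of *Dner* was -4.93, against -5.65 without the third WT library. All 6 of these genes were called again without either library. Hes and Hey genes therefore moved in both directions, with *Hes5*, *Hes6*, *Hey1*, *Hes2*, *Hes3* and *Hey2* lower and *Hes7* and *Heyl* higher.

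**Figure D2:**
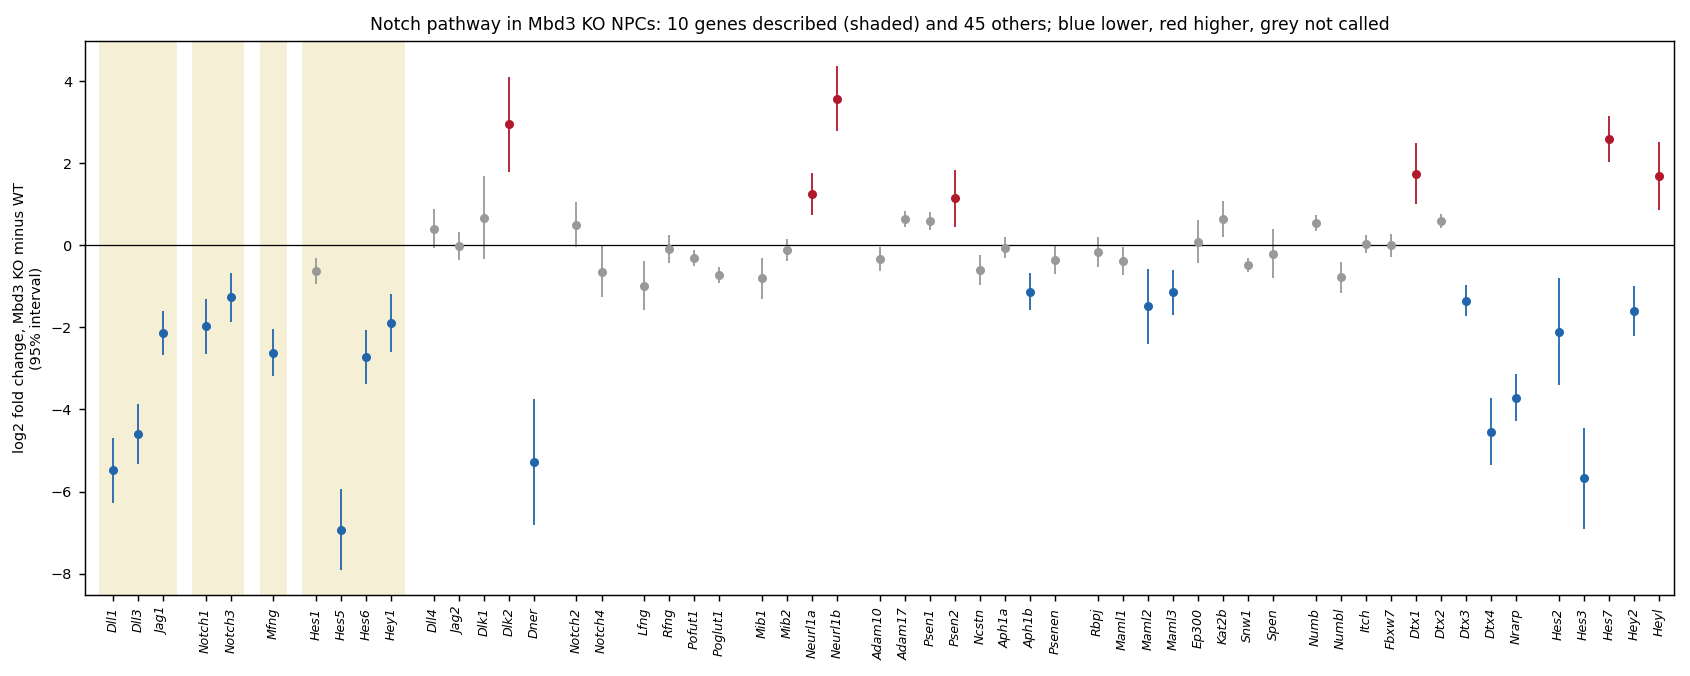
Log2 fold change between *Mbd3* KO and WT (vertical axis, bars are 95% intervals) for the 10 genes described (shaded) and 45 other pathway genes, grouped by role (n = 3 libraries per line). Blue points were called lower, red points higher and grey points were not called. The shaded genes lie below 0, with *Hes1* alone in grey, whereas the others spread to both sides.

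Re-expression of MBD3 asks whether the change depends on MBD3 itself and on its binding domain. *Mbd3* reads stood at 168 to 198 CPM with MBD3a and at 423 to 496 CPM with MBD3ΔMBD. The constructs thus differed in RNA level as well as in the domain, and the part of that level was not tested. With MBD3a, *Dll1* had 134, 106 and 127 CPM and *Hes5* 88.4, 89.0 and 77.1 CPM, and with MBD3ΔMBD *Dll1* had 129, 146 and 127 CPM and *Hes5* 81.3, 108 and 67.4 CPM. Against *Mbd3* KO, 9 of the 10 genes were higher with MBD3a (13.5% of all genes were called higher) and 9 with MBD3ΔMBD (15% of all genes). *Hes1* was the exception both times, with log2 fold changes of 0.49 (adjusted p = 0.00963) and 0.45 (adjusted p = 0.0133), under the size threshold. *Dll1* rose by 5.52 with MBD3a (SE 0.376, adjusted p = 7.43e-09) and by 5.65 with MBD3ΔMBD (SE 0.377, adjusted p = 5.30e-09) on the log2 scale. Without the first KO library 9 were higher again with each construct, and *Hey1* moved most, from a log2 fold change of 2.15 to 1.74 with MBD3a and from 2.00 to 1.59 with MBD3ΔMBD. *Hes1* then had 0.34 (adjusted p = 0.0646) and 0.31 (adjusted p = 0.0877). These comparisons and the first share the *Mbd3* KO libraries.

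Against WT, none of the 10 genes was called by edgeR with MBD3a or with MBD3ΔMBD, where 0% and 0.0181% of all genes were called. At an unadjusted p under 0.05 the counts were also 0 for each construct, as they were with DESeq2, and none of the 10 genes was called without the third WT library. Shares of all genes at these further settings are not given here. The log2 fold changes of the 10 genes lay between -0.34 and 0.26 with MBD3a and between -0.33 and 0.19 with MBD3ΔMBD, with the lowest value for *Hes5* each time. The 95% intervals of *Hes5* ran from -1.03 to 0.35 and from -1.02 to 0.36, which leave room for a log2 decrease of 1. For *Hes1* the intervals were narrower, from -0.46 to 0.16 and from -0.49 to 0.13. Among the other 45 pathway genes, 9 were higher and 6 lower with MBD3a than in *Mbd3* KO (13.5% and 18.9% of all genes).

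**Figure D3:**
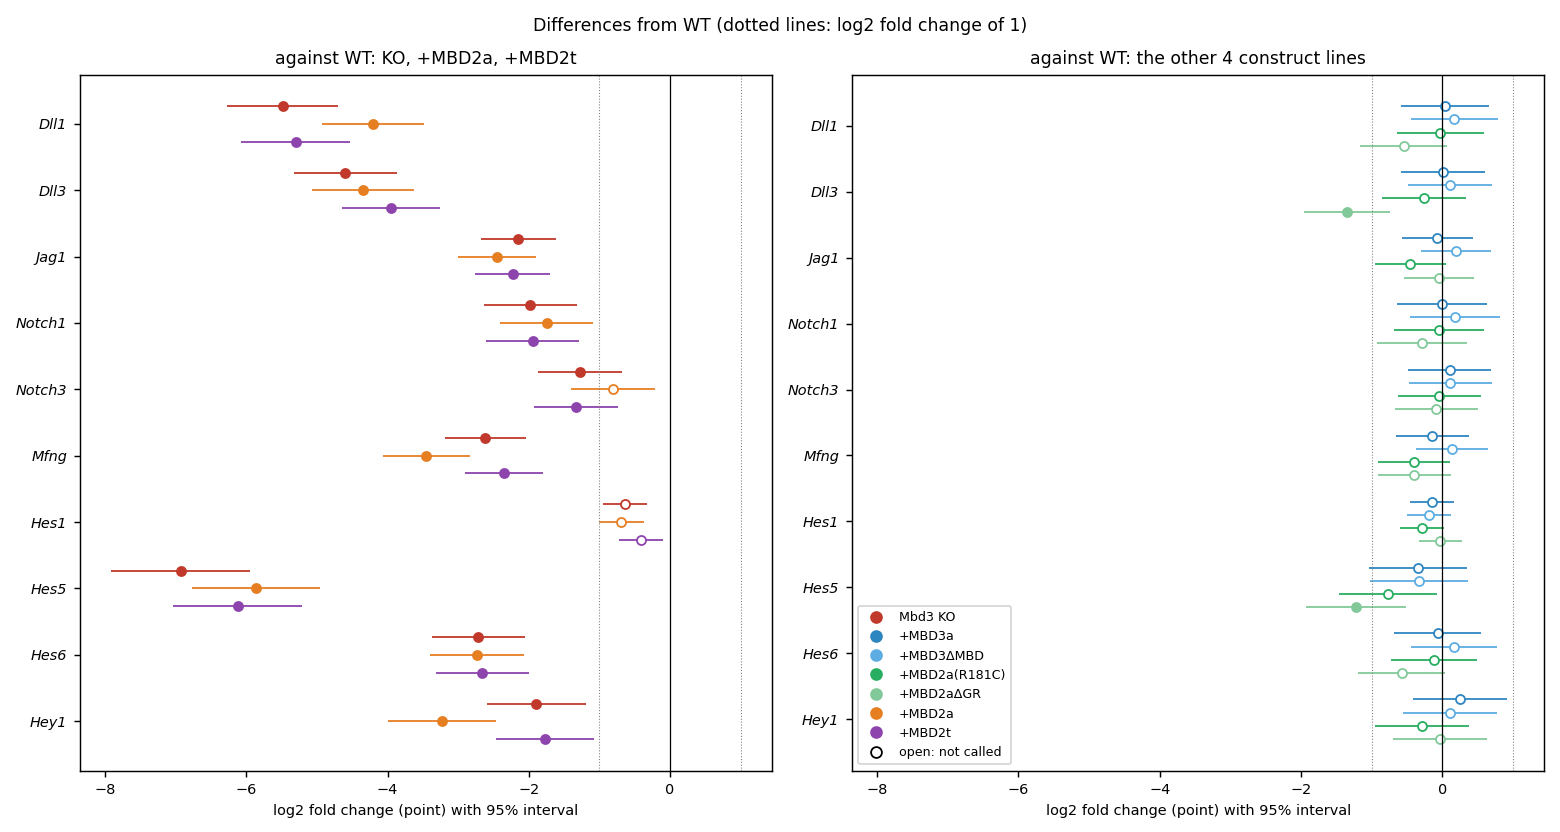
Log2 fold change of each gene against WT (points, with 95% intervals, n = 3 libraries per line), for *Mbd3* KO, MBD2a and MBD2t on the left and the other 4 construct lines on the right. Filled points were called and open points were not. The left panel lies below 0 throughout, while on the right *Dll3* and *Hes5* with MBD2aΔGR are the only filled points.

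With full-length MBD2a most of the 10 genes were low. *Dll1* had 4.84, 10.0 and 4.51 CPM with MBD2a, *Dll3* 1.81, 4.74 and 2.01 CPM, and *Hes5* 1.30, 3.68 and 0.663 CPM. The second MBD2a library was the highest of its line for these and for 7 of the 10 genes in all, yet it remained far below every WT library for the 3 named here. Against WT, 8 of the 10 genes were lower with MBD2a and none was higher, and 13.7% of all genes were called lower. The largest decrease was again in *Hes5* (log2 fold change -5.86, SE 0.435, adjusted p = 1.42e-07), ahead of *Dll3* (-4.34), *Dll1* (-4.21), *Mfng* (-3.45) and *Hey1* (-3.23). *Notch3* had 143, 141 and 112 CPM, 57.2% of the WT mean, and its log2 fold change of -0.81 (SE 0.283, adjusted p = 0.0212) was not called. Without the third WT library it was called (-1.06, adjusted p = 0.00350), and over all fits without a library its adjusted p ran from 0.00350 to 0.0984. *Hes1* had 43.3, 44.5 and 34.8 CPM, with a log2 fold change of -0.69 (adjusted p = 0.000823) that was also too small to be called. *Hes6* had 25.6, 24.5 and 16.4 CPM and was lower (-2.73, adjusted p = 2.68e-06). The genes of its chromosome deviated by -0.39 in the third MBD2a library, the lowest for *Hes6*, and by 0.20 and 0.17 in the others. Without that library its log2 fold change was -2.55 (adjusted p = 4.89e-05).

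With MBD2a, too, neural progenitor and neuron markers were lower than in WT, whereas pluripotent cell markers were higher. The neural progenitor markers summed to 240 to 430 CPM, with 5 of 6 lower than in WT, and the neuron markers to 58.5 to 185 CPM, with all 6 lower. The pluripotent cell markers summed to 267 to 484 CPM, with all 6 higher. The trophoblast markers summed to 52.7, 83.0 and 439 CPM, with 4 of 6 higher, and the 7 endoderm markers to 59.3 to 223 CPM, with 4 higher. The part of these markers in the levels of the Notch genes was not tested.

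Compared directly with *Mbd3* KO, few of the genes differed with MBD2a, and the calls made were lost when single libraries were left out. *Dll1* was higher by 1.28 on the log2 scale (SE 0.357, adjusted p = 0.0301), that is 6.46 ± 3.11 CPM against 2.64 ± 0.538 CPM (SD, n = 3), and the libraries did not overlap. *Hey1* was lower by a log2 fold change of -1.34 (SE 0.362, adjusted p = 0.0248), with 4.14, 4.33 and 2.60 CPM against 2.89, 12.5 and 12.4 CPM, and here the first KO library lay among the MBD2a libraries. These 2 calls, 1 in each direction, compare with 0.856% of all genes called higher and 4.4% called lower. *Dll1* lost its call without the second MBD2a library (0.82, adjusted p = 0.246) and without each of the 3 KO libraries (adjusted p between 0.0698 and 0.102). *Hey1* lost its call without the second or the third KO library (adjusted p = 0.123 and 0.122) and without any of the 3 MBD2a libraries (adjusted p between 0.0604 and 0.0736), whereas without the first KO library its adjusted p was 8.76e-05. Without the first KO library *Mfng* was called lower (-1.08, adjusted p = 0.0337) and without the third MBD2a library *Hes5* was called higher (1.48, adjusted p = 0.0457). The remaining members had log2 fold changes between -0.84 and 1.07.

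MBD2t, the truncated isoform, gave levels close to the *Mbd3* KO. *Dll1* had 3.47, 2.36 and 3.17 CPM, *Hes5* 1.43, 1.19 and 1.96 CPM and *Hey1* 9.55, 9.54 and 11.3 CPM. Against WT, 9 genes were lower and none was higher, where 15.1% of all genes were called lower. Against *Mbd3* KO, edgeR called none of the 10 genes (0.0241% of all genes), none passed an unadjusted p of 0.05, and DESeq2 called none. For DESeq2 and the unadjusted p, the share of all genes is not given here. The log2 fold changes from the KO lay between -0.08 and 0.81, and the widest interval, that of *Hes5*, ran from -0.26 to 1.88. Without the third WT library 9 were lower again, and without the first KO library none was called against the KO. The neural progenitor markers summed to 324 to 336 CPM with MBD2t, with 5 of 6 lower than in WT, and the neuron markers to 148 to 160 CPM, with all 6 lower. The pluripotent cell markers summed to 395 to 492 CPM and the trophoblast markers to 337 to 402 CPM, with all 12 higher. The part of these markers in the levels of the Notch genes was not tested. The p-values for MBD2t rest on a spread pooled over all lines. Its libraries repeat 1 clone, so differences between MBD2t clones are not measured.

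**Figure D4:**
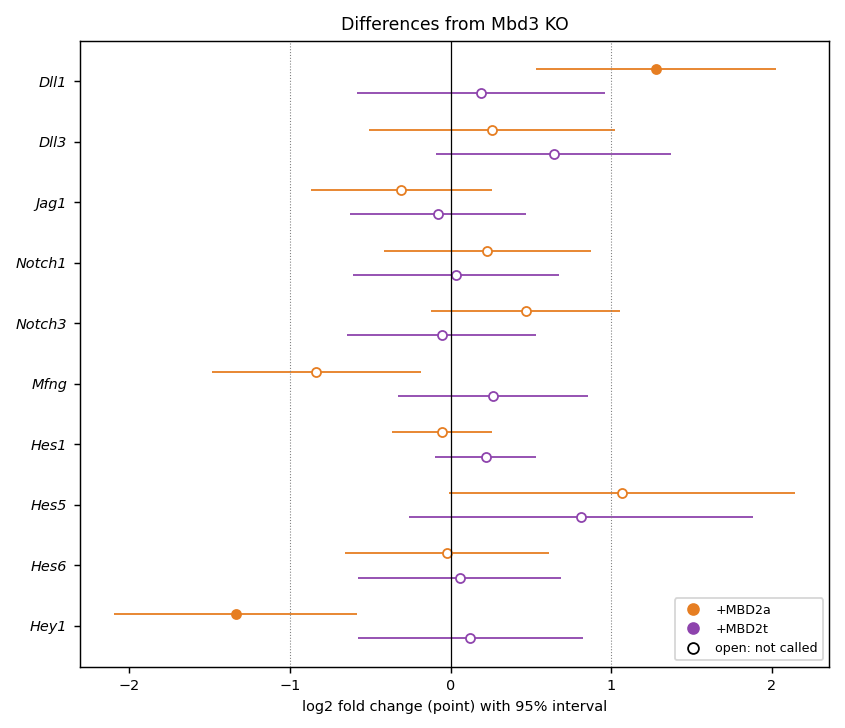
Log2 fold change of each gene with MBD2a and with MBD2t against *Mbd3* KO (points, with 95% intervals, n = 3 libraries per line). Filled points were called. *Dll1* and *Hey1* with MBD2a are the only filled points, to the right and to the left of 0.

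The MBD2a variants that lack the glycine-arginine stretch or carry the point mutation gave another picture. *Dll1* had 121, 78.7 and 44.6 CPM with MBD2aΔGR and 143, 83.4 and 124 CPM with MBD2a(R181C). *Hes5* had 65.7, 45.5 and 27.5 CPM and 74.3, 48.0 and 67.5 CPM in the same order. All these libraries lay above every MBD2a library. Against *Mbd3* KO, 9 of the 10 genes were higher with MBD2aΔGR (9.86% of all genes were called higher) and 9 with MBD2a(R181C) (13% of all genes), *Hes1* again being the exception, with log2 fold changes of 0.61 (adjusted p = 0.00260) and 0.35 (adjusted p = 0.0517). The call of *Notch3* with MBD2aΔGR (1.19, adjusted p = 0.00219) was lost without the first MBD2aΔGR library, where the log2 fold change was 0.82. Without the first KO library, and for MBD2aΔGR also without the third library of that line, the counts were 9 again.

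In the direct test of MBD2a against its variants, 8 of the 10 genes were lower with MBD2a than with MBD2aΔGR, and 8 were lower than with MBD2a(R181C). Of all genes, 8.02% and 12.2% were called lower in these comparisons, which share the MBD2a libraries. *Hes5* was 25.0-fold lower with MBD2a than with MBD2aΔGR (log2 fold change -4.64, SE 0.421, adjusted p = 2.18e-06) and 34.2-fold lower than with the point mutant (-5.10, SE 0.425, adjusted p = 3.85e-07). *Dll1* was 12.6-fold lower (-3.66, adjusted p = 2.18e-06) and 18.1-fold lower (-4.18, adjusted p = 3.85e-07). *Notch3* and *Hes1* were the members not called, with log2 fold changes of -0.72 (adjusted p = 0.0550) and -0.66 (adjusted p = 0.00235) against MBD2aΔGR. Without the third MBD2aΔGR library *Notch3* was called (-1.03, adjusted p = 0.00274). *Mbd2* reads differed between the same lines, at 80.2 ± 11.4 CPM with MBD2a, 477 ± 211 CPM with MBD2aΔGR and 278 ± 41.1 CPM with the point mutant (SD, n = 3). *Mbd2* was 5.95-fold lower with MBD2a than with MBD2aΔGR (adjusted p = 1.66e-06) and 3.47-fold lower than with the point mutant (adjusted p = 5.01e-06), and the log2 fold change from MBD2aΔGR became -2.19 (adjusted p = 1.19e-07) without the third library of that line. Its log2 fold change from *Mbd3* KO was 0.26 (adjusted p = 0.508). These are RNA values of NPCs, whereas the study reported equal protein levels for MBD2a and MBD2aΔGR by Western blot in ESCs. The part of the construct's RNA level in the Notch genes was not tested.

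With MBD2aΔGR a gap to WT remained for some genes. *Dll3* had 32.5, 18.7 and 16.4 CPM, below all WT libraries, with a log2 fold change of -1.35 (SE 0.291, adjusted p = 0.0136). *Hes5* was 42.98% of the WT mean, with a log2 fold change of -1.22 (SE 0.336, adjusted p = 0.0335). These 2 calls of 10, both lower, compare with 5.16% of all genes called and 2.47% called lower, and the median of the 10 genes was -0.34. The study itself, using edgeR with the same stated thresholds, reported no gene changed between MBD2aΔGR and WT. The cause of this difference was not tested. The third MBD2aΔGR library was the lowest of its line for 8 of the 10 genes, and without it neither gene was called (*Dll3* -1.17, adjusted p = 0.0971, *Hes5* -0.95, adjusted p = 0.206). *Dll3* also lost its call without the first WT library (adjusted p = 0.0563), and *Hes5* without any single WT library or the second MBD2aΔGR library (adjusted p between 0.0683 and 0.0736). In the third library the neural progenitor markers summed to 1014 CPM, against 1931 and 1534 CPM in the others of the line, and 7 endoderm markers to 897 CPM, against 115 and 87.8 CPM and 55.6 to 67.3 CPM in WT. The part of these markers in the lower levels was not tested.

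Of the 45 other pathway genes, 4 were lower and 1 was higher with MBD2aΔGR than in WT, where 2.47% of all genes were called lower and 5.16% in either direction. None of the 5 was called without the third MBD2aΔGR library. *Dll4*, a Delta ligand best known from blood vessels, had 7.92, 10.7 and 10.6 CPM in WT and 6.08, 3.87 and 3.21 CPM with MBD2aΔGR (log2 fold change -1.16, adjusted p = 0.0120, and -0.97, adjusted p = 0.0867, without that library). *Notch4*, a receptor of endothelial cells, had 14.4, 13.9 and 13.8 CPM in WT and 7.77, 5.57 and 4.27 CPM with MBD2aΔGR (log2 fold change -1.26, adjusted p = 0.0215, and -1.07, adjusted p = 0.153, without it). The summed level of 5 endothelial markers was 58.8 to 76.4 CPM in WT and 10.0 to 14.9 CPM with MBD2aΔGR, and 4 of the 5 were called lower. The ligase *Dtx1* (-1.87, adjusted p = 0.0123) and the Hey-related repressor *Heyl* (-1.79, adjusted p = 0.0283) were lower too, with -1.69 (adjusted p = 0.0988) and -1.45 (adjusted p = 0.207) without the third library, while both had risen in *Mbd3* KO (1.75 and 1.69). *Psen2*, the catalytic subunit of a γ-secretase, was higher (1.22, adjusted p = 0.0318), with 11.9, 14.2 and 46.2 CPM against 9.82, 9.22 and 12.1 CPM in WT, where the lines overlapped and the third library stood far above the rest. Without it the log2 fold change was 0.33 (adjusted p = 0.405).

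With MBD2a(R181C) none of the 10 genes was called against WT by edgeR (0.0181% of all genes) or by DESeq2, and 1 of them, *Hes5*, passed an unadjusted p of 0.05. Neither the DESeq2 count nor the unadjusted one has a share of all genes beside it here. *Hes5* had 58.8% of the WT mean, without overlap between the libraries, and a log2 fold change of -0.76 (95% interval -1.46 to -0.07, adjusted p = 0.999). The libraries of the point mutant and WT did not overlap for *Mfng*, *Hes1* and *Hey1* either. The share of all genes without overlap in this comparison is not given here. The first library of this line was the highest for all 10 genes and the second the lowest for 9, with *Dll1* at 143 and 83.4 CPM, so a spread common to the genes ran through the line. In the second library the neural progenitor markers summed to 1423 CPM and the pluripotent cell markers to 226 CPM, against 2075 and 2095 CPM and 23.4 and 84.5 CPM in the first and the third. The other log2 fold changes from WT lay between -0.45 and -0.03.

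Across the 8 lines the order of levels split the lines into the same sets for 8 of the 10 genes. *Mbd3* KO, MBD2a and MBD2t lay below the other 5 lines without overlap between neighbours, *Notch3* and *Hes1* being the exceptions. The share of all genes with this split was not counted. Between *Mbd3* KO and WT alone, the libraries did not overlap for 62.2% of all genes. For *Dll1* the order of means was MBD3ΔMBD, MBD3a, WT, MBD2a(R181C), MBD2aΔGR, MBD2a, MBD2t and *Mbd3* KO, and among neighbours the libraries were separate between MBD2aΔGR and MBD2a and between MBD2a and MBD2t, while the other 5 neighbouring pairs overlapped. For *Hes5* the order was WT, MBD3ΔMBD, MBD3a, MBD2a(R181C), MBD2aΔGR, MBD2a, MBD2t and *Mbd3* KO. Neighbours were separate after MBD3a, after MBD2aΔGR and after MBD2t. For *Hes1* all 7 neighbouring pairs overlapped, and the highest line was 1.61 times the lowest, against 123 times for *Hes5* and 50.6 times for *Dll1*. Of the receptors, the highest line was 4.47 times the lowest for *Notch1* and 2.71 times for *Notch3*.

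The 45 pairs of members were positively correlated over the 8 line means of log2 CPM, with a median Pearson r of 0.963 and a range of 0.777 (*Notch3* with *Hes1*) to 0.996. All points share the same libraries and fall into a high and a low set, so this is a description only. A mean log2 CPM of at least 1 was reached by 12814 genes, counted before members were left out. Of these, the genes other than members most like *Dll1* in the same measure were *Cdk5r2* (r = 0.9997, 68.2 CPM in WT and 1.66 CPM in *Mbd3* KO), *Skida1* (0.9993) and *Stam* (0.9991). *Hoxb6* (r = 0.9990, 282 CPM in WT and 31.1 CPM in *Mbd3* KO), *Opn3* (0.9989) and *Hoxd3* (0.9984) were most like *Hes5*. For *Hes1* they were *Crabp1* (r = 0.974, 122 CPM in WT and 26.9 CPM in *Mbd3* KO), *Spon1* (0.966) and *Rps6ka6* (0.965).

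In comparison with WT, the other 45 pathway genes also split with MBD2a (13 lower and 4 higher, against 13.7% and 16.9% of all genes) and with MBD2t (10 lower and 7 higher, against 15.1% and 18.2%). Their median log2 fold change with MBD2a was -0.20, against -2.98 for the 10 genes. As above, this contrast cannot be told apart from the choice of the lists. Against *Mbd3* KO, 6 of the 45 were lower with MBD2a and none was higher, where 4.4% and 0.856% of all genes were called. They were *Dll4* (log2 fold change -3.35), *Heyl* (-2.79), *Lfng* (-2.17), *Dtx1* (-1.63), *Notch4* (-1.39) and *Neurl1b* (-1.19). Whether these 6 calls hold with single libraries left out was not tested. The 5 endothelial markers summed to 21.6 to 32.5 CPM with MBD2a and to 127 to 222 CPM in *Mbd3* KO, and 4 of the 5 were called lower. The part of these markers in the 6 genes was not tested.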

How the data were processed

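Poly(A) RNA of NPCs was sequenced by the authors with a directional, single-end protocol. Per the methods and the submitters' processing notes, Trim Galore trimmed the reads, STAR aligned them to mm9, and QuasR summed them over GENCODE genes. The deposited table holds these counts as whole numbers, without normalization, for 25400 genes. The strand setting of the counting was not given in the sources used here. Columns were assigned to lines by the line name in the column header. The point mutant has the number of the sample titles here, while the column headers and most of the study's text carry others. The 6 ChIP-seq samples of the series were not analysed here.

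Genes were filtered with filterByExpr by line (16582 kept) and scaled with TMM. All 24 libraries were fitted together with the line as the only factor, and lines were compared in edgeR (version 4.0.16, under R 4.3.3) by its quasi-likelihood F test, adjusted after Benjamini-Hochberg over all genes tested. Calls needed an adjusted p under 0.05 and a log2 fold change beyond 1 in either direction. The SE of a log2 fold change was taken from its size and the F statistic (size over root F). CPM used TMM-scaled library sizes, and log2 CPM a prior count of 1. Library totals were 27993858 to 49392806 reads, with a median of 36797095, and floors of 3 reads and intervals of single values cover counting error only. With 3 libraries per line an exact permutation test cannot give a p under 0.1, so none was used. Clones of cultured cells, not animals, are the replicates, except that MBD2t has repeats of 1 clone. In the joint fit the p-values rest on a spread estimated over all lines together, so the MBD2t repeats enter every comparison. For MBD2t they hold no measure of the spread between its clones. The script was tested on simulated counts before use.

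The 10 members and all lists were chosen with earlier results of these data known. Named besides the members were, of 45 other pathway genes, the 3 largest called rises and falls in *Mbd3* KO and any called between a construct line other than MBD2a or MBD2t and WT, the 3 genes most correlated with *Dll1*, *Hes5* and *Hes1*, and *Mbd3* and *Mbd2*. *Aph1b*, *Psen2*, *Maml2*, *Maml3*, *Rbpj*, *Notch2*, *Hes2*, *Hey2*, *Heyl*, *Dll4*, *Lfng*, *Dtx1*, *Notch4* and *Neurl1b* in other comparisons were chosen after their values were seen. Alternatives were scaling by RLE, by the upper quartile or by library size alone, filters (none, 1 CPM in 3 libraries) and thresholds (adjusted p only, a 1.5-fold change built into the test with glmTreat), DESeq2 1.42.0, fits of the 2 lines compared or without MBD2t, and leaving out each library. The legacy quasi-likelihood fit, and leaving out libraries for genes other than the 10, were chosen after seeing the data.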

Additional observations from a re-analysis of the deposited data

How the results depend on the processing

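Under every alternative run, 9 or 10 members were called in *Mbd3* KO and MBD2t against WT and in MBD3a, MBD3ΔMBD and MBD2a(R181C) against *Mbd3* KO, 8 to 10 in MBD2a against WT and against MBD2a(R181C) and in MBD2aΔGR against *Mbd3* KO, 8 or 9 in MBD2a against MBD2aΔGR, and 0 in MBD3a, MBD3ΔMBD and MBD2a(R181C) against WT and in MBD2t against *Mbd3* KO. With the adjusted p alone and no size threshold, the counts of other pathway genes rose to 31 of 45 (*Mbd3* KO against WT, 60.2% of all genes), 27 (MBD2a against WT, 55.5%), 32 (MBD2t against WT, 59.8%) and 30 (MBD3a against *Mbd3* KO, 57.8%). The counts of 10 members arose under that threshold, where 46.9% to 62% of all genes were called in the comparisons concerned. The 2 members called between MBD2aΔGR and WT became 1 without the MBD2t line and with the legacy fit, 0 with glmTreat and in a fit of the 2 lines, and 0 to 2 with a library left out. The adjusted p of *Dll3* there ran, with all libraries of both lines kept, from 0.00112 to 0.181 and that of *Hes5* from 0.0226 to 0.305. The 2 members called between MBD2a and *Mbd3* KO became 1 without the MBD2t line, 0 with glmTreat and in a fit of the 2 lines, and 0 to 2 with a library left out. With all libraries of both lines kept, the adjusted p of *Dll1* there ran from 0.00412 to 0.142 and that of *Hey1* from 0.00348 to 0.237. The fit of 2 lines uses fewer samples. The cause of the other losses was not tested. Changes of sign were confined to members that were not called. *Dll3* between MBD3a and WT was 0.0076 as reported and -0.00945 (RLE), -0.00975 (no filter), -0.0128 (without MBD2t) or -0.00979 (DESeq2), and *Notch1* was -0.0048 and 0.000705 (upper quartile) or 0.0013 (2 lines). With a library left out, log2 fold changes that crossed 0 ranged as follows. For MBD2a(R181C) against WT they were *Dll1* -0.24 to 0.15, *Hes6* -0.35 to 0.12, *Notch1* -0.35 to 0.19 and *Notch3* -0.30 to 0.10. For MBD3a against WT they were *Dll1* -0.085 to 0.17, *Dll3* -0.11 to 0.11, *Hes6* -0.28 to 0.070, *Jag1* -0.27 to 0.10, *Notch1* -0.31 to 0.23 and *Notch3* -0.15 to 0.26. For MBD2a against *Mbd3* KO they were *Dll3* -0.31 to 0.48, *Hes1* -0.20 to 0.045 and *Hes6* -0.32 to 0.28. For MBD3ΔMBD against WT they were *Dll3* -0.0086 to 0.20, *Jag1* -0.046 to 0.36, *Mfng* -0.019 to 0.25, *Notch1* -0.13 to 0.41 and *Notch3* -0.14 to 0.25. For MBD2aΔGR against WT they were *Hes1* -0.13 to 0.10, *Hey1* -0.28 to 0.14, *Jag1* -0.24 to 0.12, *Notch1* -0.75 to 0.031 and *Notch3* -0.46 to 0.23. For MBD2t against *Mbd3* KO they were *Hes6* -0.24 to 0.36, *Hey1* -0.29 to 0.39, *Jag1* -0.24 to 0.094, *Notch1* -0.081 to 0.19 and *Notch3* -0.18 to 0.0070. The median over all genes between *Mbd3* KO and WT was -0.028 with TMM and 0.113 with library size only, and no called member changed direction under any scaling. No paired analysis was possible because the columns carry no replicate number. The lowest count of a member in any library was 26 reads, so members were never at the floor of 3 reads.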
